A study of Mus musculus with 80 samples.

Results

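The PRAME-like genes described here are Pramel1, Pramel3, Pramel4, Pramel5, Pramel6, Pramel7, Pramef8 and Pramef12, 8 of the 37888 gene symbols listed over 12 RNA tables from mouse ES (embryonic stem) cells, which are grown from the inner cell mass and can renew themselves. They were chosen by symbol, and entries of one symbol were summed. All 8 are listed, although Pramel3 is missing from the 3 tables of replicate 2. Current RefSeq symbols for Pramef8 and Pramef12 are Pramel12 and Pramel13.

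PRAME proteins are built of leucine-rich repeats, and their genes have multiplied in rodents and primates into clusters of similar copies that are mostly used in germ cells, the early embryo and tumours. Human PRAME is a substrate receptor of a CUL2 ubiquitin ligase, a complex that marks proteins for breakdown. In mouse ES cells PRAMEL7 is known to drive the breakdown of UHRF1, the factor that brings the maintenance methyltransferase DNMT1 to DNA, and its gene is known as a target of LIF and STAT3 signalling.

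The series studied the zinc finger factors SALL4 and SALL1 and the TET dioxygenases, and 12 of its 80 samples are RNA libraries. Sall4 het cells are labelled Sall4flox/- and Sall4 KO cells Sall4Δ/-, each with 2 libraries. KO plus mutant (2 libraries) is the Sall4 KO transfected with a mutant SALL4A, tagged with Flag in replicate 2, and KO plus wild type (1 library) is the KO transfected with wild-type SALL4A. The groups DKO (Sall1-/-/Sall4-/-), DKO control (its wild-type cells), Sall1 het (Sall1flox/-), Sall1 KO (Sall1Δ/-) and TT2, a wild-type line, have 1 library each. All Sall4 and Sall1 hets already carry 1 null allele of that gene, so het against KO compares 1 functional copy with none. The labels do not say how the floxed alleles were deleted. The strain label is C57BL/6J for replicate 1 and for the DKO and Sall1 cells, 129P2/OlaHsd with the line E14.1 for replicate 2, and (C57BL/6NCrlj x CBA/JNCrlj)F1 for TT2. The 2 libraries of each replicated group also cite the same sample record, so the p-values below reflect library-to-library spread, possibly a technical one.

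Values are FPKM in 9 tables and RPKM in the 3 of replicate 2, both per kilobase of gene model. Levels from FPKM and RPKM tables were not averaged, and no depth or counting error can be had from them. The library labels could not be checked on the targeted gene. Sall4 RNA was higher in the library labelled Sall4 KO than in the het in replicate 1 (358 against 196 FPKM) and in replicate 2 (218 against 64.2 RPKM), and it was higher in DKO than in its control (109 against 17.6 FPKM). Sall1 RNA was lower in DKO than in its control (2.27 against 13.9 FPKM) and in Sall1 KO than in its het (13.3 against 21.8 FPKM). Whether these reads lie in the deleted part of the gene cannot be seen in a gene total, and "Sall4 KO" and "DKO" below mean the libraries so labelled. The Y-linked Eif2s3y also differed, at 12.3 and 33.1 in the 2 het libraries against 0.039 and 1.39 in the 2 KO libraries. All ES cell markers listed were at 1 or more in every library. The summed level of the fibroblast markers, of which 4 to 8 are listed in a table, was 145 to 230 in the DKO, DKO control, Sall1 het and Sall1 KO libraries and 3.25 to 16.6 in the other 8. The part that other cells, or cells lacking a Y chromosome, have in the values of the PRAME-like genes was not tested.

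As highest over lowest value, Pramef12, Pramef8 and Pramel1 had the narrowest ranges of the 8 over the FPKM libraries other than TT2. Pramef12, needed for the upkeep of spermatogonial stem cells in mice, had the highest level of the 8 in all 11 libraries other than TT2. In replicate 1 it stood at 19.5 FPKM in Sall4 het, 17.8 in Sall4 KO, 29.1 with the mutant added and 26.5 with wild-type SALL4A added. It was 27.3 in the DKO control, 23.0 in DKO, 17.9 in Sall1 het and 18.5 in Sall1 KO. In replicate 2 it stood at 12.8 RPKM in the het, 25.6 in the KO and 37.3 with the mutant added. Among the FPKM libraries the DKO control lay between the mutant and the wild-type add-back, so the add-back libraries did not stand apart from all others. Over the FPKM libraries other than TT2, Pramef12 ranged from 17.8 to 29.1 and Pramef8 from 5.21 to 9.27. Pramel1, a gene known from male germ cells, ranged from 1.17 to 2.37 over the same libraries. Pramel4 ranged there from 0.310 to 10.6, Pramel6 from 0.116 to 2.75 and Pramel7 from 0.029 to 2.81. Over the RPKM libraries, Pramel4 (3.23 to 8.12) had a narrower range than Pramef12 (12.8 to 37.3). The FPKM ranges span unlike cells and kinds of gene model. TT2 differed from all the others in order: Pramel7 led there at 8.26 FPKM, followed by Pramel6 at 2.94, while Pramef12 was at 1.87, Pramef8 at 1.50 and Pramel1 at 0.915. The TT2 table names its unit FPKM in the header but RPKM in its title, lists transcripts rather than genes and comes from 1 library of another strain, so what sets it apart was not tested.

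**Figure D1:**
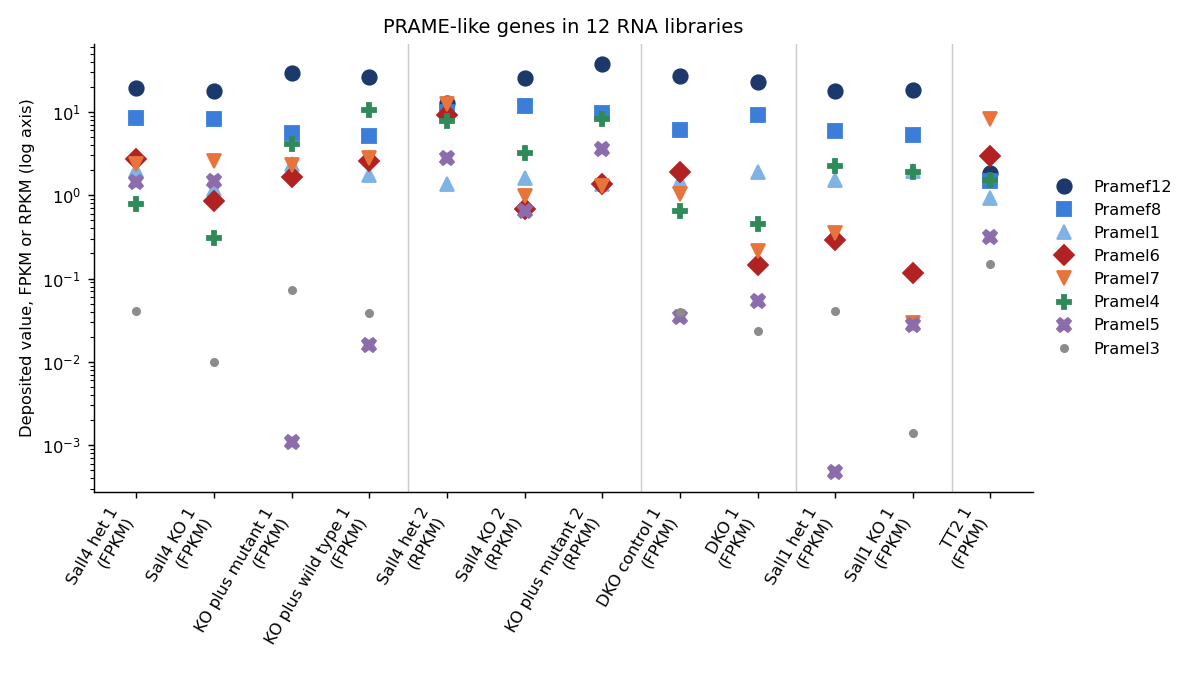
Deposited value of each PRAME-like gene (log axis, FPKM or RPKM as marked) in each of 12 libraries, 1 symbol per gene, with vertical lines between sets of libraries. Pramef12 is the highest symbol in 11 libraries, from 12.8 to 37.3, and Pramel7 is the highest in TT2 at 8.26, while Pramel6 and Pramel7 spread downwards to 0.116 and 0.029 in Sall1 KO.

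Pramel6 and Pramel7 lie side by side on chromosome 2, with 16.0 kb between their gene models (mm9), and the nearest listed genes on either side of the pair are olfactory receptor genes at 0 to 0.283 in every gene-level table. Both are known from the inner cell mass and ES cells of the mouse, where Pramel4 and Pramel5 were also found. Their RefSeq promoters, 250 bases before to 50 after the start on GRCm38.p6, are shown because these 2 genes had the largest differences between Sall4 het and KO among the 7 members fitted, both in replicate 2 and in the fit, though in replicate 1 Pramel7 did not. Capitals mark CpG, the dinucleotide that UHRF1 and DNMT1 keep methylated. Pramel6 is at chr2:87506315-87506614 on the plus strand and Pramel7 at chr2:87492369-87492668 on the minus strand.
Pramel6: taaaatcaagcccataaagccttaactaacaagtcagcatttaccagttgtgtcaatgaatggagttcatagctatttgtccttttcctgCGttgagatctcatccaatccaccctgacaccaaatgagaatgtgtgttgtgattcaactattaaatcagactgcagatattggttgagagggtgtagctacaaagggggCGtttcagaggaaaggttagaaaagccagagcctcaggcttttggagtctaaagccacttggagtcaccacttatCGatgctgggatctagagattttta
Pramel7: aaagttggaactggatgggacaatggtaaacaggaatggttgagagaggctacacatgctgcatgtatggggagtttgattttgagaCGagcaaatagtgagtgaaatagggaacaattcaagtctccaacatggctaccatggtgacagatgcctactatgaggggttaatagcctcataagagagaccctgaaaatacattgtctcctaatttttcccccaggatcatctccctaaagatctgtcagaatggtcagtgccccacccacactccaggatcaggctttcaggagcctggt
The promoters of Pramel1 (chr4:143394191-143394490, plus strand) and Pramef12 (chr4:144408415-144408714, minus strand), which had narrower ranges, are given for contrast.
Pramel1: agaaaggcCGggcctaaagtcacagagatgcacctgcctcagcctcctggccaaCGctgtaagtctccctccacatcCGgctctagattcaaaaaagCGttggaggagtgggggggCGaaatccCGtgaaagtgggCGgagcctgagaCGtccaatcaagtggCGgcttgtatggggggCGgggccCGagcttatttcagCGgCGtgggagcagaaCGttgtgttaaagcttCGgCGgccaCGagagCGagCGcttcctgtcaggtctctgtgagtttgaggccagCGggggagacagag
Pramef12: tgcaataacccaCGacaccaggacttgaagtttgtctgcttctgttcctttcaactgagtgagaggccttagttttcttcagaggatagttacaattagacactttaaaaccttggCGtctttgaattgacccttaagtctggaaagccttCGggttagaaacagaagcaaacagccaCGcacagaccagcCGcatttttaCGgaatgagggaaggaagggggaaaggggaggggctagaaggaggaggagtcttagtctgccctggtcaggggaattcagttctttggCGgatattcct
Pramel6 has 3 CpG and Pramel7 has 1 in 300 bases, where the median over 32851 RefSeq promoters is 7. Pramel1 has 20 and Pramef12 has 7. Pramel3 has 9, Pramel4 has 2 and Pramel5 has 0, and no promoter is listed for Pramef8. Of the 7 members with a promoter, Pramel4 to Pramel7 are the 4 with the fewest CpG. Over the FPKM libraries other than TT2 these 4 had wide ranges, such as 0.116 to 2.75 for Pramel6 and 0.029 to 2.81 for Pramel7. But Pramel3, with 9 CpG, also spread 52.2-fold at levels under 0.1, and the spread of Pramel5 is that between sets of tables described below. Levels that low have an unknown depth behind them, and how CpG count and spread relate was not tested. Methylation of these promoters was not analysed here.

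Motif letters were searched on both strands. The STAT core TTCNNNGAA, present in 8.30% of all promoters in the table, is in none of the 7 promoters of members. The AT-rich ATATT, a sequence that SALL4 is known to bind, is in 25.3% of all promoters and in 2 of the 7, once in Pramel6, 83 bases before the start, and once in Pramef12, 42 bases after it. Both windows are short, and a match or its absence is a description of these letters only. The promoters of Pramel6 and Pramel7 are 48.2% identical over the aligned columns, within the range of most other pairs of members, whereas Pramel7 is 76.1% identical to that of the chromosome 4 gene Pramel14.

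Pramel6 was lower in the library lacking a SALL gene in each of 4 pairs. In replicate 1 it stood at 2.75 FPKM in Sall4 het and 0.863 in Sall4 KO, and in replicate 2 at 9.18 RPKM in het and 0.684 in KO. It was 1.92 FPKM in the DKO control and 0.146 in DKO, and 0.291 in Sall1 het and 0.116 in Sall1 KO. The Sall1 pair sits below 0.3 FPKM on both sides. As ratios of deposited values, the library labelled as lacking the SALL gene was lower 3.19-fold in replicate 1, 13.4-fold in replicate 2, 13.2-fold in DKO and 2.51-fold in Sall1 KO. On the log2(scaled value + 1) scale used for all ratios and fits below, these differences were -1.002, -2.63, -1.34 and -0.21. In the fit over 6 libraries with limma, Pramel6 was lower in KO by -1.785 ± 0.48 (log2, SE, n = 2 libraries a group), with an adjusted p of 0.483. Its p was below 0.05 before adjustment. It lay lower in both replicates but did not pass the threshold of 0.05. None of the 15078 genes tested did (0% called), and 8.51% had an unadjusted p under 0.05.

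With SALL4A added back, Pramel6 was higher than in the KO, at 2.54 FPKM in KO plus wild type and 1.64 in KO plus mutant against 0.863 in replicate 1. In replicate 2 it was 1.36 RPKM in KO plus mutant against 0.684. These are log2 differences of 1.07, 0.66 and 0.63, and the fit over the 2 mutant libraries gave 0.66 ± 0.47 (adjusted p = 0.646). The level with the mutant lay below that of the het in both replicates, and at 1.36 against 9.18 RPKM in replicate 2. All add-back ratios use the same Sall4 KO libraries as the het comparison, so the 2 directions are not independent. In replicate 1 the Pramel6 gene model also spans 1.90 kb more from start to end in the Sall4 het and KO tables than in the add-back ones. Such a span need not be the length that values are divided by. Only 24.5% of the 21028 genes in both kinds of table have the same locus. The replicate 2 tables do not have this difference, since 99.9% of their shared genes have the same locus.

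Pramel7 was lower in KO in only 1 of the 2 replicates. It stood at 2.34 FPKM in Sall4 het and 2.56 in Sall4 KO of replicate 1, and at 12.4 RPKM in het and 0.991 in KO of replicate 2, a log2 difference of 0.10 against -2.80. The het library of replicate 2 held the highest Pramel7 value listed, and TT2 the second. In the DKO pair it was 1.02 FPKM in the control and 0.212 in DKO, and in the Sall1 pair 0.348 in het and 0.029 in KO, log2 differences of -0.73 and -0.39. The fit gave -1.33 ± 0.77 (adjusted p = 0.705). Without Sall4 het replicate 2 the estimate was 0.03, so the lower fitted value rests on that library.
The add-back libraries stood close to the KO, at 2.81 FPKM with wild type, 2.28 with the mutant in replicate 1 and 1.29 RPKM in replicate 2, and the fit gave 0.23 ± 0.75 (adjusted p = 0.923). In replicate 1 the Pramel7 gene model spans 4.68 kb more from start to end in the Sall4 het and KO tables than in the add-back ones. Over the 8 gene-level FPKM libraries Pramel6 and Pramel7 had a Pearson r of 0.851 between their log2 levels, the highest of the 28 pairs of members. The 8 libraries share 4 pairs of related cells and 2 kinds of gene model.

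**Figure D2:**
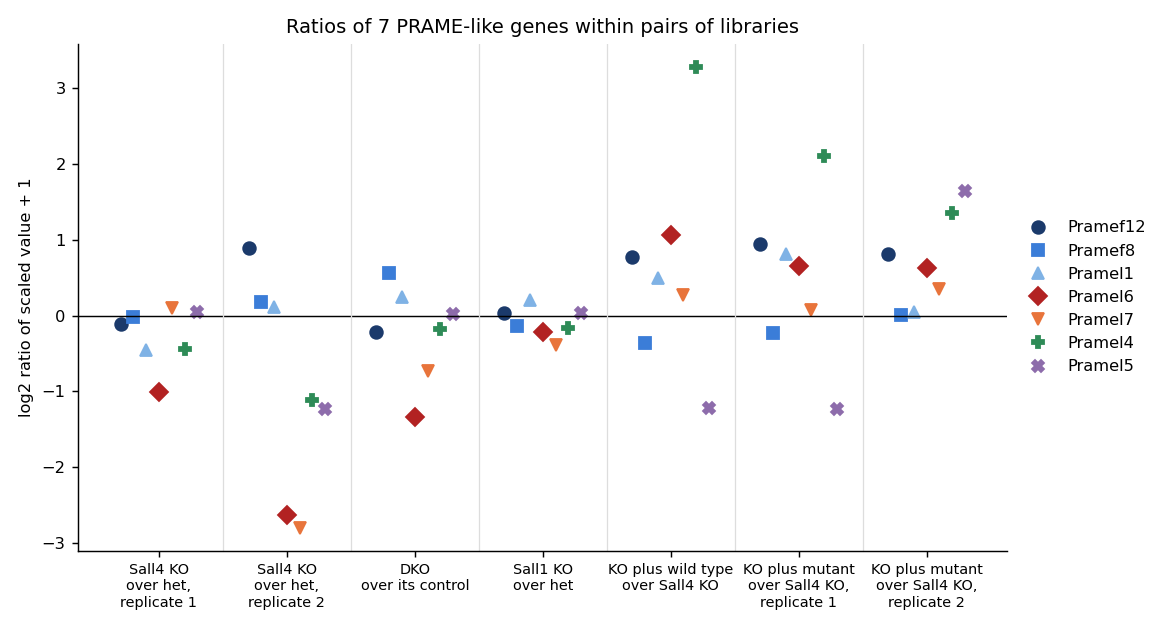
Log2 ratio of scaled value + 1 (vertical axis) of 7 PRAME-like genes in each of 7 pairs of libraries (horizontal axis), 1 symbol per gene and no error, since each is a pair of single libraries. Pramel6 is below 0 in the 4 pairs on the left and above 0 in the 3 add-back pairs, Pramel4 reaches 3.28 in KO plus wild type, and Pramel7 is at 0.10 and -2.80 in the 2 replicates of Sall4 KO over het.

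In both add-back pairs of replicate 1 Pramel4 had the largest rise of the group on the log2 scale. In replicate 2 the rise of Pramel5 was larger (1.64 against 1.35). Pramel4 stood at 0.787 FPKM in the het, 0.310 in the KO, 4.08 with the mutant added and 10.6 with wild-type SALL4A added in replicate 1. In replicate 2 Pramel4 was at 7.86 RPKM in the het, 3.23 in the KO and 8.12 with the mutant added. The KO was the lowest library in both replicates, and with SALL4A added back the level was above the het in both, though by little in replicate 2. The log2 difference from KO was 3.28 with wild type, at or above that of 99.2% of the genes at 1 or more in that pair. With the mutant it was 2.10 in replicate 1 (98.5%) and 1.35 in replicate 2 (90.7%). In the add-back pairs of replicate 1 only 24.5% of shared genes have the same locus, though the span of Pramel4 itself differs by 0.009 kb. In the fit, KO plus mutant was higher than KO by 1.77 ± 0.38 (adjusted p = 0.374, below 0.05 before adjustment), and none of 11632 genes passed (0% called), while 9.77% had an unadjusted p under 0.05. Without KO plus mutant replicate 2, the estimate was 2.34 with an adjusted p of 0.0249, in a fit that takes the spread of the lone mutant library from the other groups. That fit called 787 genes, and the one without KO plus mutant replicate 1 called 329, so the number of calls rests on single libraries. KO against het gave -0.78 ± 0.39 (adjusted p = 0.676). Pramel4 was also lower in DKO than in its control, 0.457 against 0.651 FPKM, and in Sall1 KO than in its het, 1.90 against 2.25, differences of -0.17 in both.

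The Pramel4 values cannot be told apart from those of a neighbour. Gm13102, a protein-coding gene on the same strand 30.6 kb away, had nearly the same value as Pramel4 in all 12 tables, from 0.304 in Sall4 KO replicate 1 to 10.4 in KO plus wild type, and the ratio of the 2 stayed between 0.980 and 1.07. Of 14 listed genes compared within 1 Mb of Pramel4 it was the only one within 15% in every library, and no such gene was found among the 12 to 15 compared for each of Pramel1, Pramel5, Pramef8 and Pramef12. For Pramel6 and Pramel7 only 1 gene could be compared, and for Pramel3 0. The sources do not say how the authors' counting placed reads that match both genes. The promoters of the 2 genes are shown for their likeness, with capitals at the bases that differ or have no partner in the alignment (277 of 311 columns identical, 89.1%). Pramel4 is at chr4:144058875-144059174 and Gm13102 at chr4:144099630-144099929, both on the plus strand of GRCm38.p6, with sequences from RefSeq.
Pramel4: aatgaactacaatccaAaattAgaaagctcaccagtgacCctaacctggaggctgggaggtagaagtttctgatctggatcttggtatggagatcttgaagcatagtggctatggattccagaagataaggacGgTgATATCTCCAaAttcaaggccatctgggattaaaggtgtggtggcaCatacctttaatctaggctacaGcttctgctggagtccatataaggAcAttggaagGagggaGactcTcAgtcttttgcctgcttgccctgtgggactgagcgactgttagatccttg
Gm13102: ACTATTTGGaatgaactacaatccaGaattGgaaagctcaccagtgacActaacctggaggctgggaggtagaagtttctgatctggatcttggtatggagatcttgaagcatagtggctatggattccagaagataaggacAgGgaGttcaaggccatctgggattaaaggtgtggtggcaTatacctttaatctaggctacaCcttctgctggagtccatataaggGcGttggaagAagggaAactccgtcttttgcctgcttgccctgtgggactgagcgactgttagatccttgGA
The promoter of Pramel5 is the nearest of the other members to that of Pramel4, with 83.4% of aligned columns identical. All other pairs of members were 46.5% to 52.9% identical.

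**Figure D3:**
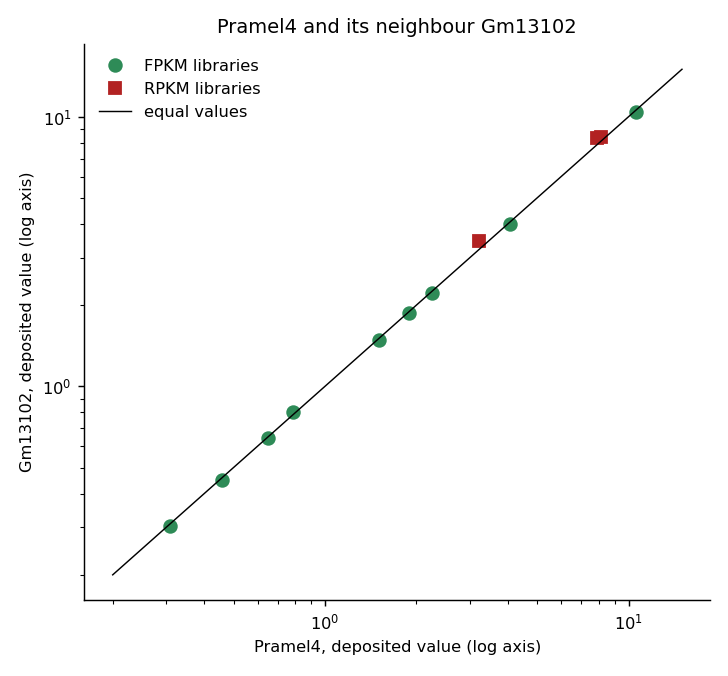
Deposited value of Gm13102 (vertical log axis) against Pramel4 (horizontal log axis) in 12 libraries, FPKM libraries as circles and RPKM libraries as squares, with a line at equal values. All points lie along the line over the whole range, with ratios of Gm13102 to Pramel4 from 0.980 to 1.07.

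Pramel5 lay in 2 ranges of level that did not overlap. It was 0.653 to 3.57 in the 4 tables of Sall4 het and Sall4 KO and in that of KO plus mutant replicate 2, and at most 0.053 in the other 6 gene-level tables. In replicate 1 it was 1.42 FPKM in Sall4 het and 1.49 in KO, but 0.001 with the mutant added and 0.016 with wild-type SALL4A added. In replicate 2, where the gene models match, it was 2.80 RPKM in the het, 0.653 in the KO and 3.57 with the mutant added. KO plus mutant lies in both ranges, low in replicate 1 and high in replicate 2, although its 2 libraries cite the same sample record. The 6 low tables use other gene models than the 5 high ones. Apart from KO plus mutant, and the Sall4 KO line shared by KO plus wild type, they also come from other sets of cells. The part of gene models, strain label and cells in the 2 ranges was not tested. The span of Pramel5 itself hardly changes between the 2 kinds of table of replicate 1, at 9.86 and 9.83 kb. The fits gave -0.58 ± 0.72 for KO against het (adjusted p = 0.896) and 0.21 ± 0.70 for KO plus mutant against KO (adjusted p = 0.926), with opposite signs in the 2 replicates of each. Pramel3, an X-linked gene, was at most 0.072 in the 8 tables that list it besides TT2, where it was 0.150, and did not reach 1 in the 2 of 6 libraries needed to enter the fit, so 7 members were tested.

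For the 3 genes with the narrowest ranges over the FPKM libraries other than TT2, no difference between KO and het passed in the fit. The estimates were 0.37 ± 0.32 for Pramef12 (adjusted p = 0.821), 0.06 ± 0.23 for Pramef8 (adjusted p = 0.975) and -0.18 ± 0.26 for Pramel1 (adjusted p = 0.911). For Pramef12 the difference was -0.09 in replicate 1 and 0.82 in replicate 2. Pramef12 was 0.90 ± 0.31 higher in KO plus mutant than in KO (adjusted p = 0.479, below 0.05 before adjustment), with 0.92 and 0.89 in the 2 replicates. Pramef8 and Pramel1 gave -0.09 ± 0.23 and 0.45 ± 0.25 in that comparison (adjusted p = 0.899 and adjusted p = 0.594).

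Among the single pairs, members past 2-fold were counted first over genes at 5 or more in either library, then over genes at 1 or more. A gene that reaches the cut in only 1 library of a pair can count in that direction alone, and the shares of all genes are under the same cut. Each member past 2-fold in the loss and add-back pairs reached the cut only where it was higher, except Pramel4 from 1 upwards in replicate 2. The counts are therefore descriptions only. In Sall4 KO over het of replicate 1, 0 of 2 members at 5 or more were past it, where 4.07% of all such genes were higher and 4.51% lower. From 1 upwards 1 of 6 was lower, Pramel6, against 4.6% of all genes, and 0 were higher against 4.09%. In replicate 2, 3 of 5 at 5 or more were lower, Pramel4, Pramel6 and Pramel7, against 7.8% of all genes, and 0 were higher against 5.74%. Those 3 reached 5 only in the het, so they could count only as lower. From 1 upwards 4 of 7 were lower, with Pramel5 added, against 7.4%, and 0 were higher against 5.25%. In that pair Pramel7 and Pramel6 lay at percentiles 0.875 and 0.985 of the genes at 1 or more, so nearly all other genes had a higher ratio. In the DKO pair 0 of 2 at 5 or more were past 2-fold (4.83% of all genes higher, 3.67% lower), and 1 of 5 at 1 or more was lower, Pramel6 (4.72% higher, 3.52% lower). In the Sall1 pair 0 of 2 (0.624% higher, 0.722% lower) and 0 of 4 (0.439% higher, 0.514% lower) were past it. The Sall1 pair thus differed least over all genes.

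The add-back pairs differed more over all genes. KO plus wild type had 1 of 3 members at 5 or more past 2-fold higher, Pramel4, against 8.55% of all genes, and 0 lower against 14.1%. From 1 upwards 2 of 7 were higher, Pramel4 and Pramel6, against 7.63%, and Pramel5 was lower, against 12.1%. The mutant of replicate 1 had 0 of 2 at 5 or more (7.51% higher, 13.3% lower), and from 1 upwards 1 of 7 higher, Pramel4, against 6.68%, and 1 lower, Pramel5, against 11%. The mutant of replicate 2 had 1 of 3 higher, Pramel4, against 14.5%, with 0 lower against 2.06%. From 1 upwards 2 of 7 were higher, Pramel4 and Pramel5, against 12.7%, and 0 lower against 1.95%.

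Of 12474 genes at 1 or more in any library of the 4 loss pairs, which share no library, 8.81% were lower in the SALL-deficient library of all 4 and 9.72% were higher in all 4. Of the 7 members among them, Pramel4 and Pramel6 were lower in all 4 and 0 were higher in all 4.

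Beyond these 8, 34 other PRAME family genes are listed under current or older symbols, and 14 of them reached 1 in at least 1 library. They include Oog1 to Oog4, known from mouse oocytes, which stayed at or below 0.196. The family genes measured in Sall4 KO over het ran in opposite directions in the 2 replicates. All 7 at 1 or more in either library of replicate 1 were higher in KO, with a median log2 difference of 0.86. All 5 in replicate 2 were lower, with a median of -1.33. Those 5 reached 1 only in the het, so their direction follows from the cut and is no support for a difference. In replicate 1, Pramel17, Pramel19 and Pramel30 were at 1 or more in both libraries, and the rest reached 1 only in KO. Pramel19 stood at 3.62 FPKM in het and 12.2 in KO of replicate 1, and at 5.28 RPKM in het and 0.657 in KO of replicate 2. Pramel31 stood at 0.831 and 2.04 FPKM, and at 2.74 and 0.524 RPKM. In DKO 5 of 7 were lower than in the control (median -0.48), and in Sall1 KO 5 of 5 were lower than in the het (median -0.68). KO plus wild type was lower than KO for 5 of 6, and KO plus mutant was higher for 5 of 7 in replicate 1. KO plus mutant was also higher for 2 of 2 in replicate 2, but those 2 reached 1 only with the mutant added. The median of all genes at 1 or more was within 0.021 of 0 in all 7 pairs.
How reads that match more than 1 family gene were counted is not stated, and likeness among the transcripts of these genes was not measured here. Only their promoters were compared, with those of the members. The promoter of Pramel7 was 76.1% identical to that of Pramel14 and 74.8% to that of Pramel30. In TT2 several reached levels not seen in the gene-level tables, 65.4 FPKM for Pramel17 against at most 5.21 elsewhere, and 27.6 for Pramel16 against at most 4.60. Pramel19 did not, at 13.9 in TT2 against 16.3 in the DKO control.

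**Figure D4:**
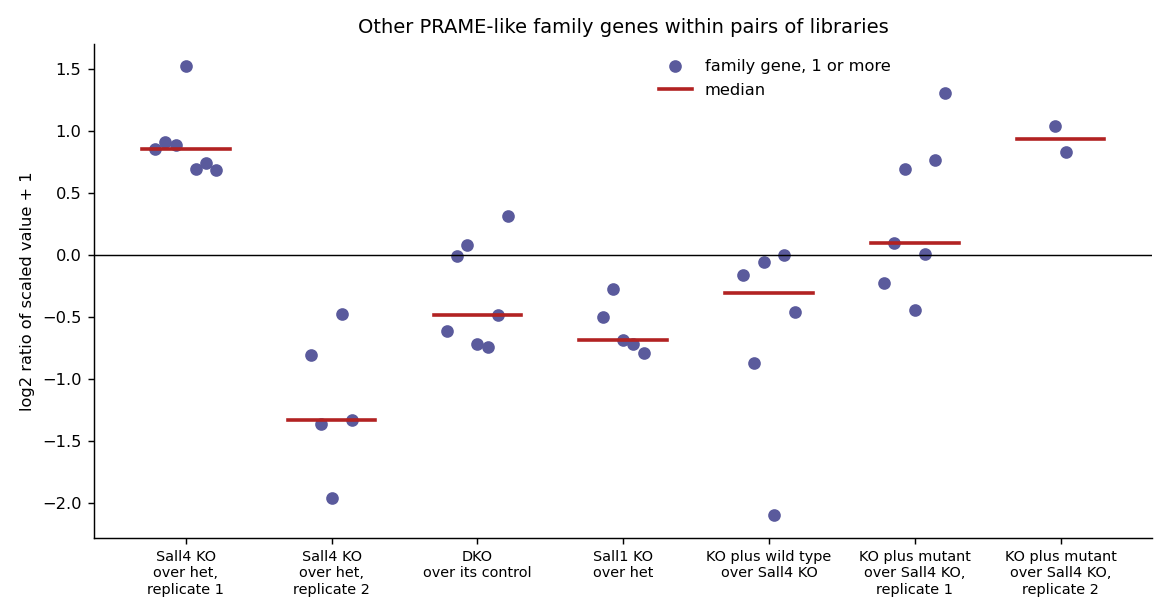
Log2 ratio of scaled value + 1 (vertical axis) of the other PRAME family genes at 1 or more in either library, in each of 7 pairs of libraries, with 1 point per gene and a bar at the median. The median is 0.86 in Sall4 KO over het of replicate 1 and -1.33 in replicate 2, where every gene shown reached 1 only in the het.

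Genes of the two-cell-like state, a passing state in which some ES cells use genes of the early cleavage embryo, had medians of the same sign as the other family genes in all 4 loss pairs. Of a list of 20 with the Zscan4 genes, Tcstv1, the Usp17l and the Tdpoz genes, the median log2 difference was 1.26 over 8 measured in Sall4 KO over het of replicate 1 and -1.83 over 9 in replicate 2. It was -1.03 in DKO and -0.66 in Sall1 KO. In KO plus wild type it was -0.47, and with the mutant 0.54 in replicate 1 and -0.07 in replicate 2, where the median of the 2 family genes was 0.93. This likeness was not tested. In both sets, a gene that reached 1 in only 1 library of a pair had its direction fixed by that cut. Zscan4c, a marker of that state, was 7.30 FPKM in Sall4 het and 18.8 in KO of replicate 1, and 16.0 RPKM in het and 3.35 in KO of replicate 2. The fit, which takes both replicates together, called 0 of 9 (median -0.31, 0 above 0 and 9 below). Those 9 were Zscan4b to Zscan4f, Tdpoz3, Tdpoz4, Eif1a and Tmem92, and neither Tcstv1 nor a Usp17l gene was among them. The share of cells in such a state and the level per cell cannot be told apart in bulk RNA, and the part of this state in the values of the PRAME-like genes was not tested. Pramel6 did not share the reversal, being lower in KO in both replicates, whereas Pramel7 was at 0.10 in replicate 1.

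The genes around PRAMEL7 and the CUL2 ligase were compared in the same fit, and 0 passed. Of the CUL2 ligase list, 12 of 13 were measured, 8 above 0 and 4 below in KO against het, with a median of 0.12 against -0.02 over all genes tested. Cul2, the scaffold of the complex, gave 0.31 ± 0.40 (adjusted p = 0.901). Of the methylation list, all 7 were measured, 5 above 0 and 2 below, with a median of 0.15. Uhrf1 itself was 90.6 and 78.7 FPKM in het and KO of replicate 1 and 56.4 and 84.6 RPKM in replicate 2, and the fit gave 0.15 ± 0.40 (adjusted p = 0.966). The 12 genes of LIF and STAT3 signalling had 10 above 0 and 2 below (median 0.22). In the single pairs they had 7 above and 5 below in replicate 1, and 12 above and 0 below in replicate 2. Stat3 gave -0.24 ± 0.34 (adjusted p = 0.911) and Tfcp2l1, a target of STAT3, gave 1.20 ± 0.33 (adjusted p = 0.488). Of 16 germline genes, 13 were measured, 1 above 0 and 12 below (median -0.29), among them Dazl, an RNA-binding protein of germ cells, at -1.25 ± 0.37 (adjusted p = 0.499). Over all genes tested 51.9% were below 0. In the single pairs the germline genes had 5 above and 9 below in replicate 1 (median -0.10), and 0 above and 14 below in replicate 2 (median -0.83).
In KO plus mutant against KO, again 0 of these genes passed. The medians were 0.03 for the CUL2 list, -0.27 for methylation, -0.10 for LIF and STAT3, 0.34 for the two-cell-like list and 0.14 for germline genes, against -0.02 over all genes tested. Markers of primitive endoderm summed to 9.83 and 6.74 in the Sall4 KO libraries against 4.01 and 1.80 in the het libraries, and those of trophoblast to 128 and 34.3 in KO against 80.7 and 38.4 in het. The trophoblast list is Cdx2, Elf5, Krt8 and Krt18, and only the keratins Krt8 and Krt18 were measured in the fit. In DKO and in its control 2 of these 4 were at 1 or more. The trophoblast markers summed to 137 in DKO against 9.42 in its control, and those of primitive endoderm to 6.78 against 3.00. The part of either in the lower Pramel6 and Pramel7 values was not tested.

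The genes most like a member in level were sought over the 8 gene-level FPKM libraries, by Pearson r of log2 levels. They were sought among 8433 genes that reached 5 in any of these, with predicted gene names left out. That left out Gm13102, which was nearly equal to Pramel4 in each of these libraries. These libraries share 2 kinds of gene model and 4 sets of related cells, so r is a description. For Pramel4 they were Lbr (the lamin B receptor, r = 0.998), Ppp1r16b (0.993), Sfxn4 (0.989), Tnfsf10 (0.989) and Rin1 (0.989). Ppp1r16b ran from 1.89 to 46.3 FPKM and Lbr from 35.5 to 55.7. For Pramef12 they were Cenpe (a kinetochore motor, r = 0.986), Elovl6 (a fatty acid elongase, 0.983), Tubb2b (0.978), Hnrnpul2 (0.967) and Tecr (0.966). For Pramef8 they were Sbsn (0.954), Uap1l1 (0.945), Fam115a (0.943), Tmem45a (0.928) and Spata6 (0.919). Pramel6 and Pramel7 did not reach 5 in these 8 libraries, and their likeness was added after their values were seen: the highest r was 0.957 for both, with Pdp2 for Pramel6 and Ell for Pramel7.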

How the data were processed

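RNA was measured in 12 libraries of mouse ES cells, and the other 68 samples of the series were not analysed here. The submitters' processing notes name the build mm9 and the tools Bowtie 0.12.7, TopHat, MACS 1.4.2 and SAMtools for the series as a whole. The notes do not say which of them made each table, or how the RNA was selected. The deposited FPKM values (fragments per kilobase of gene model, scaled to mapped fragments) cover 9 libraries and the deposited RPKM values (the same for single reads) the 3 of replicate 2, per the file headers. Neither unit holds read totals, so depth is unknown. The 10 highest entries held 79.8% of the sum of values in Sall4 het replicate 1 and 10.2% in DKO, and such a share lowers all other values of a library. Coordinates of gene models are on mm9 as the tables give them.

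Entries of one symbol were summed. The TT2 table lists transcripts, and 99.3% of its 21689 gene identifiers matched a RefSeq table of GRCm38.p6, used for names only. Promoters of 7 members came from RefSeq on that build. Values were scaled to a common median ratio, taken from genes at or above 1 in each library compared. Log2 was taken after adding 1, so changes of low genes are understated. The fit covered the 6 libraries of Sall4 KO, KO plus mutant and Sall4 het, and genes reaching 1 in 2 of them. It was made with limma 3.58.1 in R 4.3.3 (trended eBayes) with group and replicate number as terms, since the unit changes with the replicate. Tests are two-sided, adjusted by Benjamini and Hochberg over all genes. Pairs of single libraries have no test. For them genes at 5 or more in either library were counted past 2-fold. The fit was tested on simulated data. Other software was pandas 2.3.3 and numpy 2.4.6 under Python 3.11.15, with matplotlib 3.10.9 for plots.

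The 8 members, the gene lists, the rule for like genes (the 5 highest r, predicted genes left out) and the neighbours (3 listed genes a side) were chosen with earlier results of these data known. Gm13102 and the Y-linked and targeted genes were looked at after values were seen. Alternatives were another pseudocount, no scaling, upper quartile scaling, no filter, only the 4 libraries compared, no replicate term and leaving out each library.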

Additional observations from a re-analysis of the deposited data

Results flagged for a closer look

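The difference between Sall4 KO and Sall4 het had opposite signs in the library pairs of replicate 1 (strain label C57BL/6J) and replicate 2 (129P2/OlaHsd) for 5 of 7 members, where 40% of 15727 genes at 1 or more in any of the 4 libraries did. With upper quartile scaling it was 4 of 7 members and 39.4% of genes, since Pramef8 was then at 0.022 in replicate 1. With 1 library on each side, none of these differences between the replicates was tested. The gap was widest for Pramel7, at a log2 difference of 0.10 in replicate 1 and -2.80 in replicate 2. Pramel5 was at 0.048 and -1.23, and Pramef12 at -0.12 and 0.89. Pramel1 was at -0.46 and 0.11, and Pramef8 at -0.017 and 0.18. Pramel4 and Pramel6 had the same sign in both replicates.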

How the results depend on the processing

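No member passed the threshold in any alternative other than Pramel4 in KO plus mutant against KO without KO plus mutant replicate 2. Calls over all genes stayed at 0 in KO against het. In KO plus mutant against KO they ranged from 0 to 787 when a library was left out, with 329 without KO plus mutant replicate 1. Same-numbered libraries share a unit and a strain label, so the replicate block was part of the fit. Without the replicate block 0 genes were called in both comparisons. Pramel6 then had an adjusted p of 0.702 in KO against het, and Pramel4 one of 0.656 in KO plus mutant against KO. Over all alternatives the adjusted p was 0.316 to 1 for Pramel6 in KO against het. Leaving out each library moved its estimate from -2.60 to -0.97, and that of Pramel4 in KO plus mutant against KO from 1.16 to 2.34.

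The estimates that changed sign were these, and the cause was not tested. In KO against het, leaving out each library gave a range of -0.087 to 0.81 for Pramef12, -0.083 to 0.21 for Pramef8 and -2.69 to 0.031 for Pramel7, each changing sign without Sall4 het replicate 2. It gave -0.48 to 0.12 for Pramel1 (sign changed without Sall4 KO replicate 1) and -1.63 to 0.47 for Pramel5 (without Sall4 KO replicate 2). In KO plus mutant against KO, Pramel5 was at -0.64 with a pseudocount of 0.1, at -0.84 without Sall4 KO replicate 2 and at -0.97 without KO plus mutant replicate 2, the range being -0.97 to 1.32. Pramel7 ranged from -0.58 (without Sall4 KO replicate 2) to 1.03, with -0.38 without KO plus mutant replicate 1, and Pramef8 from -0.27 to 0.023 (without KO plus mutant replicate 1). Counting genes from 1 upwards in place of 5 put 1 member past 2-fold lower in Sall4 KO over het replicate 1, 1 lower in DKO, 2 higher and 1 lower in KO plus wild type, 1 higher and 1 lower in KO plus mutant replicate 1, and 2 higher in its replicate 2. Upper quartile scaling put 1 higher, Pramef12, in KO plus mutant replicate 1. Pairs of single libraries have no replicate check, levels under 1 have an unknown depth behind them, and the tables differ in gene models.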
